A study of Mus musculus with 9 samples.

Results

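The genes described here are 10 regulators of the integrated stress response that act with or downstream of the transcription factors ATF4 and CHOP: *Atf4*, *Ddit3* (which encodes CHOP), *Atf3*, *Cebpb*, *Cebpg*, *Trib3*, *Chac1*, *Ppp1r15a*, *Sesn2* and *Nupr1*. They were chosen by name, as 10 of the 54432 genes of the deposited table, and each had a row with counts. All 10 passed the filter on low counts, more than 10 counts in at least 3 libraries, that left 12637 genes to be tested. *Ddit3* has 2 rows in the table, and the copy used (ENSMUSG00000025408) is the one with counts, since the other had 0 counts in every library. RAW 264.7 cells, a line of mouse macrophages, were profiled by RNAseq in 3 groups of 3 libraries. Control cells were left untreated, the VLDL-sized group received 1 mM of triglyceride-rich emulsion particles in the size range of very low-density lipoprotein (VLDLsep in the labels) for 6 hours, and the CHYL-sized group received 1 mM of chylomicron-sized emulsion particles (CHYLsep) for 6 hours. The dose of 1 mM is that of the methods for both particles, whereas a supplementary legend gives a lower dose for the CHYL-sized cells. All groups were grown in the same medium with 10% fetal bovine serum. The cells are a single transformed line and the particles are artificial emulsions. The methods describe biological and technical triplicates, with samples of a condition from a single experiment combined before sequencing. A library therefore stands for a pool and not for a single dish.

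Cells that lack amino acids, accumulate unfolded protein in the endoplasmic reticulum (ER), sense double-stranded RNA or run short of heme activate kinases that phosphorylate the translation factor eIF2α. Most protein synthesis then slows, while the mRNA of *Atf4* is translated better because of short upstream reading frames, so that ATF4 protein is set to a large extent by translation and not by the amount of its mRNA. ATF4 binds composite C/EBP-ATF elements as a dimer with C/EBP proteins and induces genes for amino acid supply and stress regulators, among them *Ddit3*, *Atf3*, *Trib3*, *Chac1* and *Sesn2*. *Ppp1r15a* encodes GADD34, which brings protein phosphatase 1 to eIF2α and so closes the loop. In macrophages, lipid loading and ER stress are known settings of this response. RNAseq measures the mRNA of these genes, not the phosphorylation of eIF2α and not ATF4 protein.

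Depth was nearly equal, at 22393893 to 22856792 counts per library. The libraries of replicate 3 stood apart in every group: their deviations from the group means correlated with each other across genes (r from 0.29 to 0.36, over 12637 genes, which are not independent replicates). With those of replicates 1 and 2 they correlated negatively (−0.12 to −0.25). Deviations from a mean of 3 libraries sum to 0 for each gene. The negative values therefore follow, in sum, from the positive ones and add no separate evidence. What set them apart is not stated in the labels, and the fold changes and calls of the 10 genes are therefore given with all 9 libraries and without replicate 3. The fits without replicate 3 rest on 2 libraries per group and leave out the libraries that deviated together. Their smaller p-values are therefore not stronger evidence than those with all 9 libraries. Of the macrophage markers, *Lyz2*, *Csf1r*, *Cd68* and *Cd14* were at 552 cpm or more in every library (counts relative to library size, scaled with TMM factors), while *Mrc1* stayed at 2.44 cpm or less. The summed level of 10 macrophage markers was 6923 to 7012 cpm in controls, 6182 to 6376 cpm after VLDL-sized particles and 6360 to 6562 cpm after CHYL-sized particles, with 1 marker higher and 6 lower, and 0 higher and 3 lower, respectively (limma-voom; edgeR and DESeq2 also gave 0 higher after CHYL-sized particles, and 1 was higher at an unadjusted p under 0.05 with each tool). Across all genes tested, 17.8% were called higher and 17.9% lower after VLDL-sized particles, and 12.7% and 13.0% after CHYL-sized particles (limma-voom, all libraries). Without TMM factors 0 of the markers were higher and 7 lower after either particle. Without replicate 3, 1 marker was higher and 6 lower, and 1 higher and 4 lower, respectively. Fewer cells of a type and less RNA per cell cannot be told apart in bulk RNA, and the part of this difference in the results was not tested. Among markers of other cell types, *Col3a1*, *Epcam*, *Krt18* and *Adipoq* had 0 counts in every library, *Col1a1* had 4 counts at most, and the endothelial marker *Pecam1* reached 0.772 cpm.

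The promoters of the genes were searched for elements that the pathway is known for, and stretches with a match are shown here, read from RefSeq for GRCm38.p6 in the direction of the gene, with the matched motif in capitals. Windows from 250 bases before to 50 bases after the RefSeq start were found for 10 of the 10 genes and searched on both strands. The C/EBP-ATF core, TGATGNAA, was found in 4 of the 10 windows, those of *Atf3*, *Chac1*, *Nupr1* and *Trib3*, against 3.97% of 32851 promoter windows of the same length. On the gene strand all 4 matches read as the reverse complement, 3 of them with the same 8 letters.
Atf3: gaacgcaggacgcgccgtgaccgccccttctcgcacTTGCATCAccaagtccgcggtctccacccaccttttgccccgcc
Chac1: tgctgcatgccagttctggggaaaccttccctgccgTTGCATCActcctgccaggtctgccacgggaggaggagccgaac
Nupr1: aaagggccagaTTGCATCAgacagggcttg
Trib3: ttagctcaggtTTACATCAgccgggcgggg

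The *Atf3* stretch is chr1:191183400-191183479 on the minus strand, in an intron of a longer *Atf3* transcript that starts upstream. The *Chac1* stretch, chr2:119351013-119351092 on the plus strand, is intergenic, before the annotated start. That of *Nupr1*, chr7:126625562-126625591 on the minus strand, overlaps an untranslated exon of another *Nupr1* transcript. That of *Trib3*, chr2:152344028-152344057 on the minus strand, lies after the RefSeq start, but the motif itself is upstream of the start that GENCODE gives, and the stretch overlaps the first GENCODE exon only at its 3′ end. Counted from the RefSeq start, the motif began at position −110 in both *Atf3* and *Nupr1*, at −193 in *Chac1* and at 15 in *Trib3*.

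Other motifs were rarer among the 10 genes. The cyclic AMP response element, TGACGTCA, matched only *Ppp1r15a* (1.79% of all windows), from position −12, in the stretch chr7:45526269-45526316 on the minus strand, upstream of the gene.
Ppp1r15a: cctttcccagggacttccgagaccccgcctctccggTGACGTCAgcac

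The AP-1 element, TGANTCA, matched only *Ddit3* (7.81% of all windows), from position −242, in the stretch chr10:127290543-127290565 on the plus strand, which is also an exon of the noncoding gene Gm4189 on the other strand. Gm4189 itself had 0 or 1 count per library.
Ddit3: cgcgcgcaTGACTCActcacctc

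The antioxidant element core, TGACNNNGC, matched *Cebpb*, *Ppp1r15a* and *Sesn2* (12.4% of all windows), and *Atf4* and *Cebpg* held none of the 4 motifs in this window. A match is a description of the letters and not a measured binding site.

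**Figure D1:**
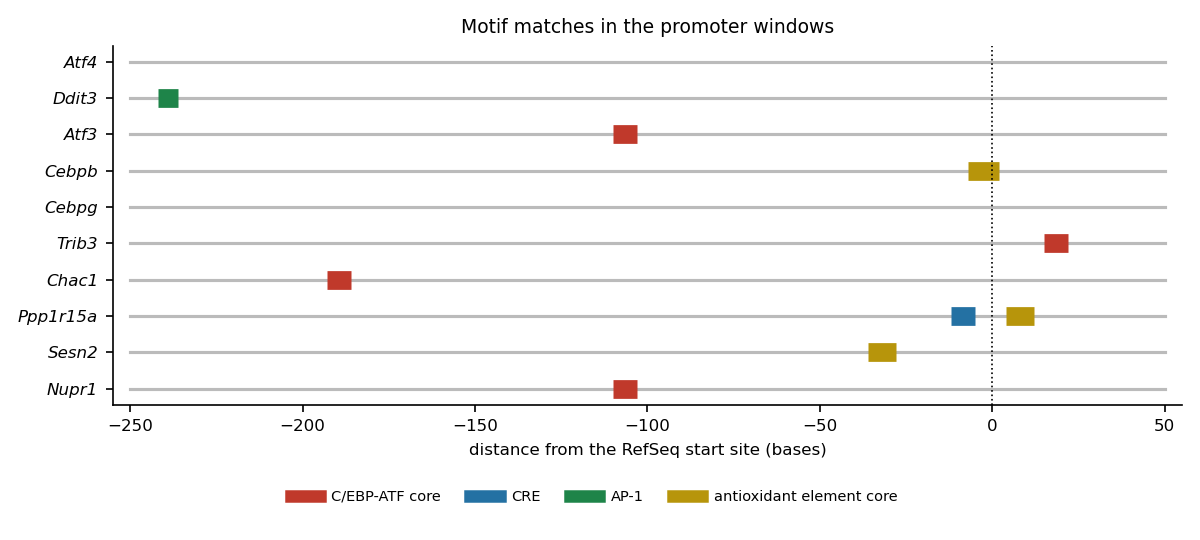
Positions of the 4 motifs in the promoter window of each gene, in bases from the RefSeq start (dotted line); coloured blocks are matches on either strand. The C/EBP-ATF core stands in 4 windows, and those of Atf4 and Cebpg hold no match.

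Levels between genes were compared per kilobase of the median coding transcript. In control cells *Atf4* was the most abundant, at 217 ± 70.7 cpm per kb (SD, n = 3), followed by *Atf3* (73.3 ± 32.6) and *Cebpb* (58.8 ± 14.4), which did not differ beyond their spread. *Cebpg* (17.8 ± 2.29) and *Nupr1* (12.4 ± 1.37) came next. The other 5 lay close together, from *Ddit3* at 7.22 ± 2.06 through *Trib3*, *Sesn2* and *Ppp1r15a* to *Chac1* at 3.78 ± 2.56 cpm per kb, and neighbours in that order did not differ beyond their spread. The ranks of the first 3 genes and of *Chac1*, the lowest, were the same in all 3 groups, whereas *Ddit3* moved from rank 6 in control to rank 4 after VLDL-sized particles (25.4 ± 2.17 cpm per kb) and to rank 7 after CHYL-sized particles (13.6 ± 2.94). After VLDL-sized particles it did not differ beyond the spread from *Nupr1* (24.6 ± 1.63) or *Cebpg* (22.6 ± 3.38). Nor did *Ddit3* differ beyond the spread from *Trib3*, at rank 6, after CHYL-sized particles (15.0 ± 4.6 for *Trib3*).

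*Atf4* encodes the central transcription factor of the response (chromosome 15 from 80255184 to 80257541, GRCm38). Its level was 213, 208 and 357 cpm in control libraries 1, 2 and 3, 498, 447 and 562 cpm after VLDL-sized particles, and 338, 361 and 536 cpm after CHYL-sized particles. The VLDL-sized libraries all lay above the controls, whereas CHYL-sized library 1 lay below control library 3. Compared with control, *Atf4* rose with a log2 fold change of 0.99 after VLDL-sized particles (standard error, SE, 0.21, adjusted p = 0.0043, limma-voom with Benjamini-Hochberg adjustment) and of 0.68 after CHYL-sized particles (SE 0.21, adjusted p = 0.039). Without replicate 3 the log2 fold changes were 1.16 (adjusted p = 2.9e-09) and 0.73 (adjusted p = 4.8e-07), and within replicate 3 alone they were 0.66 and 0.59.

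*Ddit3* (chromosome 10 from 127290774 to 127296288) encodes CHOP, a C/EBP-related factor that dimerizes with other C/EBP proteins and promotes cell death under sustained ER stress. Control libraries held 4.25, 4.76 and 7.12 cpm, VLDL-sized libraries 18.9, 17.3 and 20.6 cpm and CHYL-sized libraries 8.11, 9.81 and 12.4 cpm. These come from 101 to 452 counts per library. No library of 1 group reached into the range of another, with VLDL-sized above CHYL-sized and CHYL-sized above control. The log2 fold change against control was 1.85 after VLDL-sized particles (SE 0.19, adjusted p = 4.1e-05) and 0.92 after CHYL-sized particles (SE 0.21, adjusted p = 0.0079), or 2.00 (adjusted p = 1e-07) and 0.98 (adjusted p = 0.00024) without replicate 3. The 3′ end of the gene overlaps *Mars* on the opposite strand (2023 to 2420 counts per library), whose log2 fold change after VLDL-sized particles was 0.11 (adjusted p = 0.39). Whether reads were counted by strand is not given in the sources used here.

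*Atf3* (chromosome 1 from 191170296 to 191218039) encodes a factor that is quickly induced by many stresses and, in macrophages, is known to restrain inflammatory genes. It was present at 104, 108 and 216 cpm in controls 1, 2 and 3, at 399.8, 373 and 488 cpm after VLDL-sized particles, and at 293, 274 and 413 cpm after CHYL-sized particles. Control library 3 was well above the other controls, and every treated library lay above it. *Atf3* rose with a log2 fold change of 1.64 (SE 0.25, adjusted p = 0.00055) and 1.26 (SE 0.25, adjusted p = 0.0043) after VLDL-sized and CHYL-sized particles, and 1.86 (adjusted p = 2e-11) and 1.42 (adjusted p = 4.4e-10) without replicate 3.

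The C/EBP members behaved differently from each other. *Cebpb* (chromosome 2 from 167688915 to 167690418), an intronless gene for a factor of myeloid and inflammatory gene expression, was at 80.9, 71.6 and 113 cpm in controls 1, 2 and 3, 154, 129 and 153 cpm after VLDL-sized and 125, 138 and 163 cpm after CHYL-sized particles. Both treated groups lay above all controls and overlapped each other. Its log2 fold changes were close for the particles, at 0.74 (SE 0.15, adjusted p = 0.0034) and 0.70 (SE 0.15, adjusted p = 0.0067). Without replicate 3 they were 0.89 (adjusted p = 1.9e-06) and 0.79 (adjusted p = 9.5e-06). *Cebpb* overlaps *Tmem189* on the opposite strand (6443 to 8030 counts per library, log2 fold change 0.18 and adjusted p = 0.12 after VLDL-sized particles), its estimated counts are not whole numbers, and reads of the overlap could be divided between these genes.

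*Cebpg* (chromosome 7 from 35046422 to 35056573) encodes C/EBPγ, a short partner of ATF4 that lacks an activation domain of its own. Control libraries had 53.6, 53.6 and 42.5 cpm, VLDL-sized libraries 67.3, 70.4 and 52.6 cpm, and CHYL-sized libraries 64.7, 61.2 and 49.6 cpm. Replicate 3 was the lowest library in each group, and the lowest treated libraries lay below the 2 higher controls. The log2 fold change of *Cebpg* was 0.34 after VLDL-sized particles (SE 0.14, adjusted p = 0.074) and 0.23 after CHYL-sized particles (SE 0.14, adjusted p = 0.26), neither past the threshold. With the replicate number as a block, the VLDL-sized value was 0.34 (adjusted p = 5.4e-05) and the CHYL-sized value 0.23 (adjusted p = 0.0017). Without replicate 3 both values passed, at 0.36 (adjusted p = 0.00015) and 0.23 (adjusted p = 0.006). Leaving out VLDL-sized library 3 alone gave 0.47 (adjusted p = 0.015) for VLDL-sized particles. With all libraries DESeq2 gave 0.35 (adjusted p = 0.034) after VLDL-sized and 0.23 (adjusted p = 0.24) after CHYL-sized particles.

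**Figure D2:**
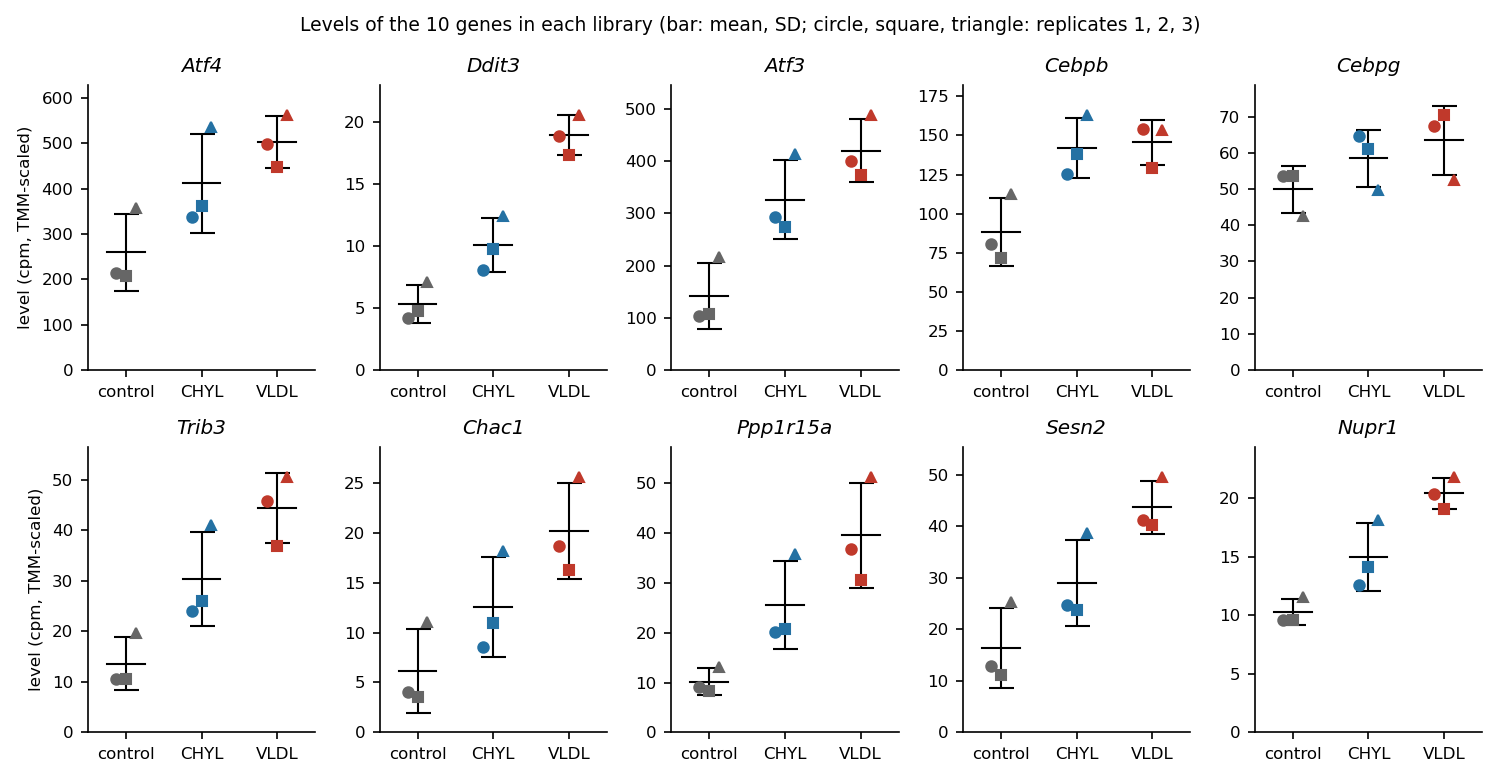
Level of each of the 10 genes (cpm, TMM-scaled, linear axis from 0) in control, CHYL-sized and VLDL-sized libraries; circles, squares and triangles are replicates 1, 2 and 3, and bars give the mean and SD (n = 3). The replicate 3 library (triangle) was the highest of the controls for 9 of 10 genes and the lowest for Cebpg.

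The other 5 genes encode effectors and feedback regulators. *Trib3* (chromosome 2 from 152337422 to 152344032) encodes a pseudokinase that binds ATF4 and CHOP and dampens their activity. It had 10.5, 10.6 and 19.7 cpm in controls 1, 2 and 3, 45.8, 36.8 and 50.5 cpm after VLDL-sized particles and 24.1, 26.0 and 41.1 cpm after CHYL-sized particles. Every treated library exceeded every control, and CHYL-sized library 3 reached into the VLDL-sized range. The log2 fold changes were 1.76 (SE 0.26, adjusted p = 0.00041) and 1.18 (SE 0.27, adjusted p = 0.0084), and without replicate 3 they were 1.96 (adjusted p = 3.2e-08) and 1.24 (adjusted p = 6.2e-06).

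*Chac1* (chromosome 2 from 119351229 to 119354381) encodes a cyclotransferase that degrades glutathione. It varied most among the controls relative to its mean, with 4.04, 3.50 and 11.02 cpm, and it was at 18.7, 16.2 and 25.5 cpm after VLDL-sized particles and 8.51, 10.98 and 18.2 cpm after CHYL-sized particles. The VLDL-sized libraries all exceeded the controls, but control library 3 lay above CHYL-sized libraries 1 and 2. *Chac1* rose after VLDL-sized particles with a log2 fold change of 1.88 (SE 0.39, adjusted p = 0.0035), and its value of 1.15 after CHYL-sized particles did not pass (SE 0.41, adjusted p = 0.066). Without replicate 3 the values were 2.20 (adjusted p = 3e-07) and 1.36 (adjusted p = 7.2e-05). The CHYL-sized value also passed when control library 3 (1.66, adjusted p = 0.015) or CHYL-sized library 1 (1.39, adjusted p = 0.045) was left out. With the replicate number as a block it passed as well (1.04, adjusted p = 0.0013), but not with edgeR (adjusted p = 0.093) or DESeq2 (adjusted p = 0.15).

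*Ppp1r15a* (chromosome 7 from 45522916 to 45526268) encodes GADD34. Its levels were 9.04, 8.38 and 13.2 cpm in controls 1, 2 and 3, 36.7, 30.6 and 51.2 cpm after VLDL-sized particles and 20.2, 20.7 and 35.7 cpm after CHYL-sized particles. Treated and control libraries did not overlap. The fitted log2 fold change of 1.95 after VLDL-sized particles (SE 0.28, adjusted p = 0.0004) was the largest of the 10 genes, above *Chac1* and *Ddit3* by less than its SE, whereas *Chac1* had the largest without replicate 3. After CHYL-sized particles it was 1.30 (SE 0.30, adjusted p = 0.0088). Its log2 ratios of same-numbered VLDL-sized and control libraries were close, at 2.02, 1.87 and 1.95. Without replicate 3 the fold changes were 1.94 (adjusted p = 2.3e-08) and 1.23 (adjusted p = 4.5e-06).

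*Sesn2* (chromosome 4 from 132492032 to 132510501) encodes sestrin 2, a leucine sensor that holds back mTORC1. Control libraries held 12.8, 11.1 and 25.4 cpm, VLDL-sized libraries 41.3, 40.2 and 49.5 cpm and CHYL-sized libraries 24.8, 23.8 and 38.6 cpm. Control library 3 lay above CHYL-sized libraries 1 and 2, and all VLDL-sized libraries lay above all others. The log2 fold change was 1.505 (SE 0.26, adjusted p = 0.0012) after VLDL-sized and 0.89 (SE 0.27, adjusted p = 0.037) after CHYL-sized particles. Without replicate 3 it was 1.77 (adjusted p = 2.9e-09) and 1.02 (adjusted p = 1.6e-06).

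*Nupr1* (chromosome 7 from 126623249 to 126630861) encodes a small chromatin-associated stress protein. It had 9.63, 9.61 and 11.6 cpm in controls 1, 2 and 3, 20.4, 19.0 and 21.8 cpm after VLDL-sized particles and 12.5, 14.1 and 18.2 cpm after CHYL-sized particles. The 3 groups were fully separate, as for *Ddit3*. Its log2 fold changes were 0.99 (SE 0.13, adjusted p = 0.00025) and 0.53 (SE 0.14, adjusted p = 0.019), and 1.03 (adjusted p = 1.8e-06) and 0.47 (adjusted p = 0.0035) without replicate 3.

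Compared with control, 9 of the 10 genes rose after VLDL-sized particles, all but *Cebpg*, and none fell; across all genes tested 17.8% rose and 17.9% fell (limma-voom). Their median log2 fold change was 1.57 and that of all genes tested −0.0003. In 9 of the 10 genes the lowest VLDL-sized library lay above the highest control library, which held for 23.7% of all genes. With the replicate number as a block, 10 of 10 genes passed (24.1% of all genes higher), and without replicate 3 also 10 of 10 (21.6%).

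After CHYL-sized particles 8 of the 10 genes rose, all but *Chac1* and *Cebpg*, and none fell; 12.7% of all genes tested rose and 13.0% fell. The median of the 10 genes was 0.91 and that of all genes 0.0013. Control and CHYL-sized libraries did not overlap for 6 genes, against 20.8% of all genes with CHYL-sized higher; *Atf4*, *Chac1*, *Cebpg* and *Sesn2* overlapped. Without replicate 3 all 10 genes passed (16.9% of all genes higher). The count of 8 changed when single libraries were left out: it was 5 without control library 1 or without control library 2. Calls over all genes, in either direction, fell as well, from 3249 to 2337 and 2398, respectively. In these fits *Atf4* (0.56 and 0.55, adjusted p = 0.14 and 0.13), *Sesn2* (0.76 and 0.65, adjusted p = 0.13 and 0.14) and *Nupr1* (0.48 in both, adjusted p = 0.073 and 0.07) no longer passed. *Atf4* also missed the threshold without CHYL-sized library 2 (0.76, adjusted p = 0.057) or 3 (0.48, adjusted p = 0.12), as did *Sesn2* without CHYL-sized library 1 (0.98, adjusted p = 0.052) or 3 (0.66, adjusted p = 0.1). With DESeq2 neither gene passed (adjusted p = 0.086 for both). The comparisons of the particles with control share the 3 control libraries, so their values are given side by side only.

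**Figure D3:**
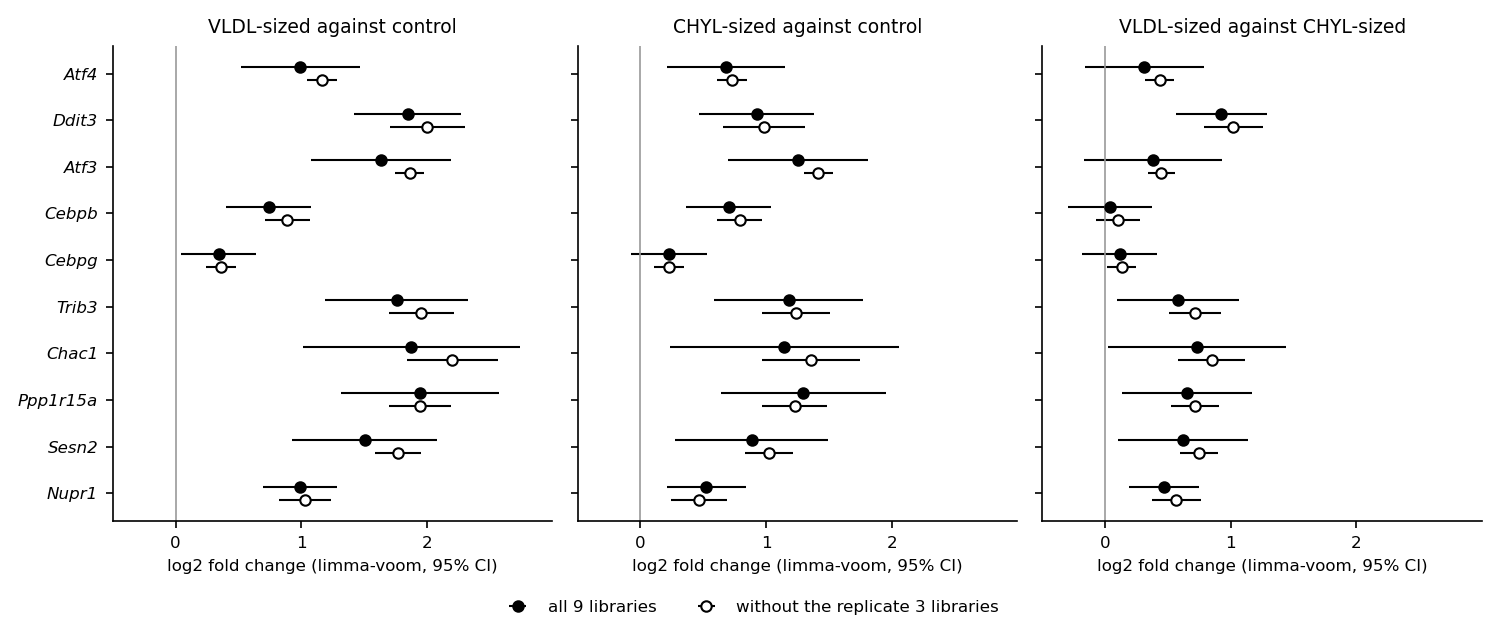
Fitted log2 fold change of each gene with its 95% confidence interval (limma-voom) for the 3 comparisons, with all 9 libraries (filled) and without the replicate 3 libraries (open); the vertical line marks 0. After VLDL-sized particles the fold changes of all 10 genes lie above 0, and between the particles the intervals with all 9 libraries include 0 for Atf4, Atf3, Cebpb and Cebpg.

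The next question was whether the particles of different size differed at the same time and at the dose of the methods, 1 mM for both. A supplementary legend of the paper gives 0.5 mM for the CHYL-sized cells. The part of a possible difference in dose was not tested. With all 9 libraries, in the fit without a term for the replicate, none of the 10 genes passed the threshold between VLDL-sized and CHYL-sized particles (limma-voom, adjusted p from 0.5 to 0.99), and 0.0% of all genes passed (edgeR also called 0 genes and DESeq2 24). At an unadjusted p under 0.05, 6 of the 10 genes were higher after VLDL-sized particles, *Ddit3*, *Nupr1*, *Ppp1r15a*, *Sesn2*, *Trib3* and *Chac1*, as were 3.34% of all genes. At that limit edgeR gave 4 and DESeq2 2 of the 10, and neither called any of them after adjustment, with no adjusted p from DESeq2 for *Ddit3*, *Chac1* and *Nupr1*. *Ddit3* had the largest difference, a log2 fold change of 0.92 (95% interval 0.56 to 1.28, unadjusted p = 0.00018, adjusted p = 0.5). *Nupr1* followed by unadjusted p, at 0.47 (interval 0.19 to 0.74, adjusted p = 0.51). For *Cebpb* the difference was 0.04 with an interval from −0.29 to 0.37, and for *Cebpg* 0.11 (−0.18 to 0.41), so that these intervals include differences of either sign.

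Without replicate 3 the same comparison gave 8 of 10 genes higher after VLDL-sized particles, where 0.997% of all genes were. The difference was 1.02 for *Ddit3* (interval 0.78 to 1.26, adjusted p = 0.0006), 0.85 for *Chac1* (adjusted p = 0.0036), 0.75 for *Sesn2* (adjusted p = 0.00043), 0.57 for *Nupr1* (adjusted p = 0.0063), 0.45 for *Atf3* (adjusted p = 0.0007) and 0.43 for *Atf4* (adjusted p = 0.0014). *Ppp1r15a* and *Trib3* passed as well. *Cebpb*, at 0.10 (interval −0.07 to 0.27, adjusted p = 0.63), and *Cebpg*, at 0.13 (0.01 to 0.25, adjusted p = 0.28), did not. This fit rests on 2 libraries per group. Same-numbered libraries showed the same direction in every pair for 9 of the 10 genes, with log2 ratios of 1.22, 0.82 and 0.72 for *Ddit3* and 0.56, 0.31 and 0.07 for *Atf4*. *Cebpb* was the exception, at 0.30, −0.10 and −0.09. The same direction in every pair was not counted over all genes, and the numbers were not taken as a pairing here. The ratios are therefore a description only.

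All 10 genes had their highest mean after VLDL-sized particles, the next after CHYL-sized particles and the lowest in control, an order found for 30.9% of all genes tested. The VLDL-sized and CHYL-sized libraries did not overlap for *Ddit3*, *Sesn2* and *Nupr1*, 3 of 10 genes, against 5.66% of all genes with VLDL-sized higher.

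Control library 3 was the highest control for 9 of the 10 genes, against 41.2% of all genes tested, and the lowest for *Cebpg*. Its level relative to the mean of control libraries 1 and 2 was 1.55 higher on the log2 scale for *Chac1*, 1.09 for *Sesn2*, 1.02 for *Atf3*, 0.90 for *Trib3* and 0.76 for *Atf4*. The smallest excess was that of *Nupr1*, 0.27, and *Cebpg* was at −0.34. In the treated groups replicate 3 was the highest library for 8 genes after VLDL-sized and 9 genes after CHYL-sized particles, against 39.1% and 38.2% of all genes tested, and in VLDL-sized cells the excess was 0.55 for *Chac1*, 0.28 for *Sesn2* and 0.34 for *Atf3*. The log2 ratio of VLDL-sized to control was smaller within replicate 3 than in replicates 1 and 2 for all 10 genes but *Ppp1r15a*, for example 1.21 against a mean of 2.21 for *Chac1* and 0.96 against 1.77 for *Sesn2*. These are values of 1 library per group, without a test.

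**Figure D4:**
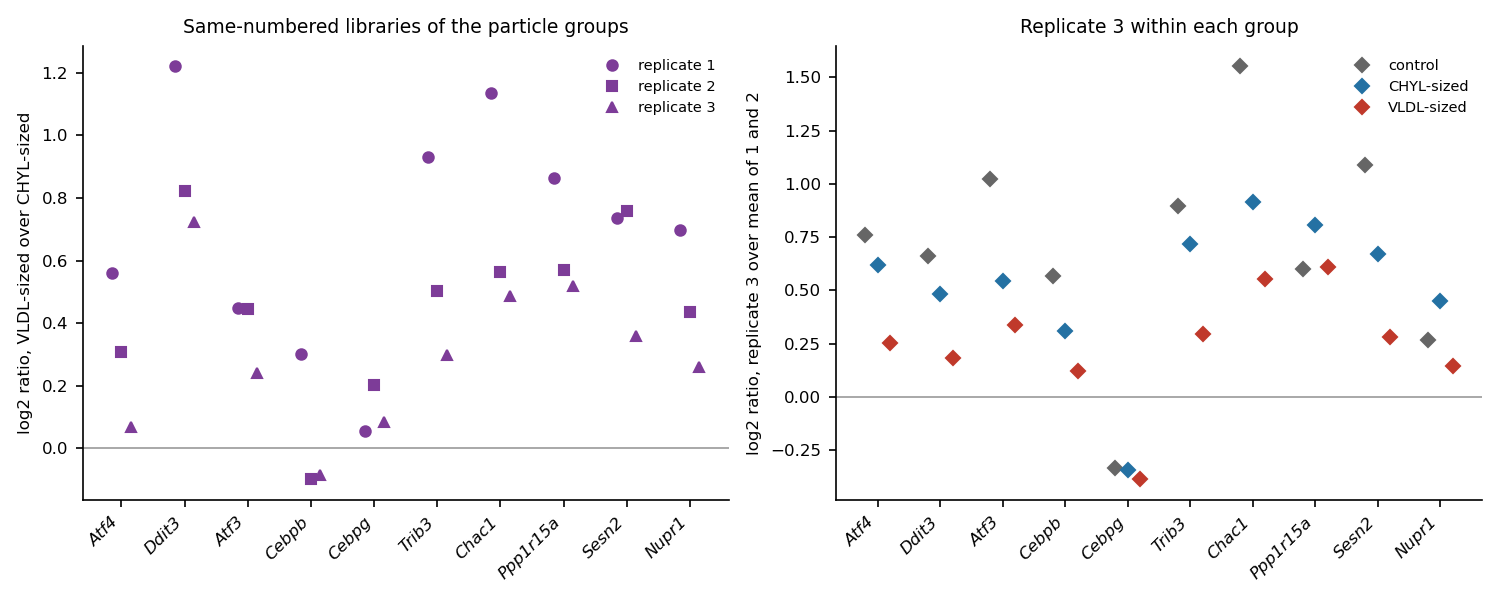
Left, log2 ratio of VLDL-sized over CHYL-sized libraries of the same replicate number for each gene; right, log2 ratio of replicate 3 over the mean of replicates 1 and 2 within each group. On the left Ddit3 lies between 0.72 and 1.22 in all 3 pairs and Cebpb on both sides of 0; on the right the control group has the largest excess of the 3 groups for every gene above 0 but Ppp1r15a and Nupr1, and Cebpg is below 0 in every group.

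Of 6 relatives tested in the Tribbles, CHAC, sestrin, PPP1R15 and NUPR families, 1 rose and 2 fell after VLDL-sized particles and 0 rose and 2 fell after CHYL-sized particles (limma-voom; edgeR and DESeq2 also gave 0 higher, as did an unadjusted p under 0.05). The counts were equal without replicate 3. Over all genes tested with all libraries, 17.8% rose and 17.9% fell, and 12.7% rose and 13.0% fell, respectively. *Sesn1*, a p53 target with the same known activity towards mTORC1, fell from 32.5 ± 9.71 to 12.7 ± 2.98 cpm after VLDL-sized particles (SD, n = 3, log2 fold change −1.34, adjusted p = 0.0041) and to 14.1 ± 3.93 cpm after CHYL-sized particles (−1.20, adjusted p = 0.0092), while *Sesn3* had −0.02 (adjusted p = 0.92). In the Tribbles family *Trib1*, which promotes the degradation of C/EBPα, fell from 22.04 ± 3.39 to 11.5 ± 1.53 cpm after VLDL-sized particles (−0.93, adjusted p = 0.0043) and to 14.3 ± 3.96 cpm after CHYL-sized particles (−0.65, adjusted p = 0.029), and *Trib2* was too low to be tested. *Ppp1r15b*, the constitutive counterpart of GADD34, stood at 175 ± 10.9 cpm in control cells, with a fold change of 0.04 on the log2 scale (adjusted p = 0.63). *Chac2* rose from 1.64 ± 0.09 to 2.88 ± 0.633 cpm after VLDL-sized particles (0.79, adjusted p = 0.011) and had 0.29 (adjusted p = 0.36) after CHYL-sized particles.

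Among C/EBP genes, *Cebpa*, the myeloid lineage factor, rose from 7.63 ± 0.619 to 30.3 ± 2.07 cpm after VLDL-sized particles (log2 fold change 1.99, adjusted p = 2.1e-06) and to 29.4 ± 4.2 cpm after CHYL-sized particles (1.94, adjusted p = 3.9e-06). *Cebpd* fell after VLDL-sized particles (−0.71, adjusted p = 0.025), with −0.44 (adjusted p = 0.15) after CHYL-sized particles, and *Cebpe* had −0.19 (adjusted p = 0.06). *Atf5*, which like *Atf4* is controlled by upstream reading frames, rose from 53.1 ± 7.11 to 93.4 ± 5.95 cpm (0.82, adjusted p = 0.00019). Of 23 bZIP relatives tested, 6 rose and 3 fell after VLDL-sized particles and 3 rose and 0 fell after CHYL-sized particles (limma-voom; edgeR and DESeq2 also gave 0 lower, and 1 was lower at an unadjusted p under 0.05 and 1 was called lower without TMM factors). Without replicate 3, 8 rose and 3 fell, and 4 rose and 0 fell, respectively. For all genes tested with all libraries the shares were 17.8% higher and 17.9% lower after VLDL-sized particles, and 12.7% and 13.0% after CHYL-sized particles.

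**Figure D5:**
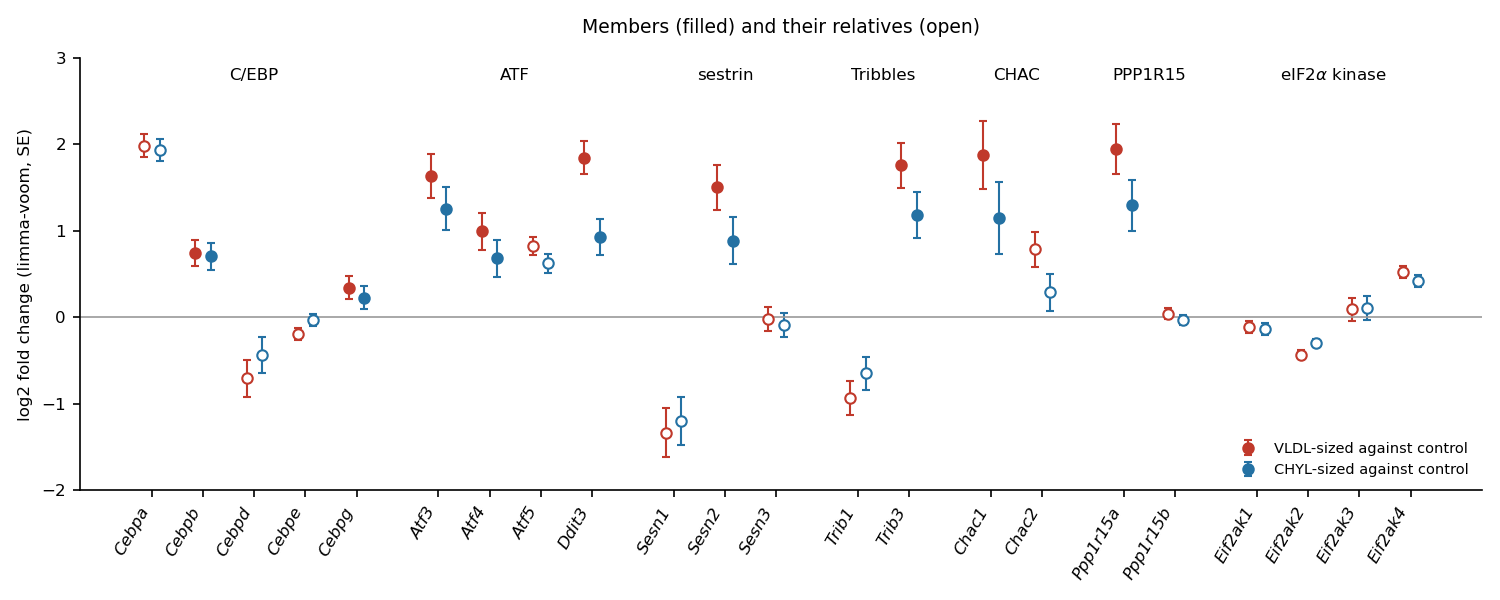
Fitted log2 fold change with its standard error (limma-voom) after VLDL-sized (red) and CHYL-sized (blue) particles against control, for genes of the set (filled) and relatives (open), by family. Sesn2 lies above and Sesn1 below 0, Trib3 above and Trib1 below 0, and Ppp1r15b close to 0 beside Ppp1r15a.

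Upstream of ATF4, the eIF2α kinases differed in mRNA. *Eif2ak4*, encoding the amino acid sensor GCN2, rose from 24.5 ± 0.939 to 35.2 ± 2.73 cpm after VLDL-sized particles (log2 fold change 0.52, adjusted p = 0.00025) and by 0.42 after CHYL-sized particles (adjusted p = 0.0017). *Eif2ak2*, the double-stranded RNA sensor PKR, fell from 76.4 ± 3.10 to 56.6 ± 1.09 cpm (−0.43, adjusted p = 8.7e-05). The ER kinase PERK (*Eif2ak3*) had 0.09 (adjusted p = 0.65) and the heme-regulated kinase HRI (*Eif2ak1*) −0.11 (adjusted p = 0.25). *Impact*, an inhibitor of GCN2 activation, rose more than any of them, from 23.1 ± 4.98 to 61.4 ± 13.4 cpm (1.41, adjusted p = 0.0006). In all, 4 of 20 genes of the eIF2 machinery rose and 1 fell after either particle, *Eif2s2* (0.48) and *Eif2b3* (0.45) among the rises, with a median of 0.07 after VLDL-sized particles. Without replicate 3, 6 rose and 1 fell after VLDL-sized particles and 5 rose and 2 fell after CHYL-sized particles. Without TMM factors, on library size alone, 4 rose and 4 fell after VLDL-sized particles. Among all genes tested with all libraries, 17.8% rose and 17.9% fell after VLDL-sized particles, and 12.7% and 13.0% after CHYL-sized particles.

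Downstream, 27 of 36 ATF4 targets tested rose after VLDL-sized particles and 0 fell, with a median log2 fold change of 0.50, and 15 rose and 0 fell after CHYL-sized particles, with a median of 0.31. For both particles 0 were lower with limma-voom, edgeR and DESeq2, also at an unadjusted p under 0.05. Of all genes tested, 17.8% and 12.7% rose after VLDL-sized and CHYL-sized particles, and 21.6% and 16.9% without replicate 3. Without replicate 3, 30 and 26 of the 36 targets rose. Among them the cystine transporter gene *Slc7a11* had the largest log2 fold change, 4.56 (adjusted p = 2.3e-05), from 5.06 ± 3.07 to 109.9 ± 31.1 cpm, followed by the stress cytokine gene *Gdf15* (2.58), the glycine transporter gene *Slc6a9* (2.09) and the autophagy receptor gene *Sqstm1* (1.94). *Slc7a11* and *Sqstm1* are also known targets of NRF2. *Fgf21*, *Phgdh*, *Slc7a3*, *Stc2* and *Vldlr* of this list were too low to be tested. Between the particles 0 of 36 differed with all libraries (limma-voom and edgeR, against 1 with DESeq2; 7, 5 and 7 at an unadjusted p under 0.05), and 18 were higher after VLDL-sized particles without replicate 3.

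Genes that CHOP is known for in cell death gave a mixed picture: of 5 tested, *Ero1l*, an ER oxidase gene (0.62, adjusted p = 0.00011), and *Bcl2l11*, encoding BIM (0.39, adjusted p = 0.0035), rose after VLDL-sized particles and the survival gene *Bcl2* fell from 34.6 ± 1.41 to 20.5 ± 1.57 cpm (−0.76, adjusted p = 1.7e-05). *Bbc3* (−0.32, adjusted p = 0.094) and *Pmaip1* (0.01, adjusted p = 0.93) did not pass. After CHYL-sized particles 1 of the 5 rose and 2 fell, *Bbc3* among them (−0.47, adjusted p = 0.03). Without replicate 3, 2 rose and 1 fell after VLDL-sized particles and 2 rose and 2 fell after CHYL-sized particles. Of the ER chaperones and folding factors, 6 of 19 rose after VLDL-sized and 2 of 19 after CHYL-sized particles, with medians of 0.11 and 0.10, and 8 of 19 rose after each without replicate 3. *Dnajb9* had 0.75 (adjusted p = 9.4e-06), *Syvn1* 0.31 (adjusted p = 0.043), *Hsp90b1* 0.21 (adjusted p = 0.0037) and *Hspa5*, encoding BiP, 0.17 (adjusted p = 0.05 as rounded, at the threshold). Without TMM factors, on library size alone, 2 of the 19 were higher after VLDL-sized particles and the median was 0.01. Since *Sesn1* is a p53 target and *Sesn2* can be one, 11 p53 targets were also read: 4 rose and 2 fell after either particle, with *Plk3* (1.18) and *Mdm2* (1.09) higher and *Sesn1* and *Phlda3* (−0.75) lower after VLDL-sized particles. Without replicate 3, 7 rose and 3 fell, and 4 rose and 2 fell, respectively. With all libraries, 17.8% of all genes tested rose and 17.9% fell after VLDL-sized particles, and 12.7% and 13.0% after CHYL-sized particles.

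Finally, genes with the most similar pattern were sought as those with the smallest root mean square difference of centred log2 cpm over the 9 libraries, among 10596 genes. Outside the set, those nearest to *Atf4* were *Zfand2a* (difference 0.094), *Mthfd2* (0.113), *Ifrd1* (0.117), *Igf2bp2* (0.119) and *Mt2* (0.123). The genes outside the set nearest to *Ddit3* were *Ddit4* (0.157), *Slc1a4* (0.186), *Arid5a* (0.214), *Akap6* (0.251) and *Hilpda* (0.268). Counting all genes, *Trib3* (0.188, rank 3), *Sesn2* (0.232, rank 5) and *Ppp1r15a* (0.234, rank 6) were the members of the set nearest to *Ddit3*, and *Nupr1* (0.164, rank 27) was the one nearest to *Atf4*. *Cebpg* was far from both, at 0.516 and 0.726. The 9 libraries share the group differences and the deviation of replicate 3, so likeness here describes both.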

How the data were processed

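Total RNA of 9 RAW 264.7 libraries was sequenced on the BGISEQ-500 as 150-base pairs. The authors mapped reads with Salmon 0.14.1 (per the submitters' processing notes) to GENCODE M22 transcripts of GRCm38.p6 and deposited estimated counts per gene, summarized with tximport. A scaling for transcript length and depth is described for them, but 58.3% of deposited values above 10 were whole numbers, so they were taken as unscaled. All columns were assigned by the labels, and 54346 of 54432 gene identifiers had a symbol. Gene coordinates come from GENCODE M21, 1 release earlier than theirs.

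The filter kept a gene with over 10 counts in 3 or more libraries. Tests were made by limma 3.58.1 (voom weights) after TMM normalization (edgeR 4.0.16, R 4.3.3), in 1 model of 9 libraries, two-sided, with Benjamini-Hochberg adjustment over all genes tested and a threshold of 0.05. Means and SDs are of TMM-scaled cpm. Intervals are 95%. Levels per kilobase use the median length of coding transcripts. The p-values measure the spread between libraries, each a pool. Libraries held 22393893 to 22856792 counts.

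The 10 genes and all lists were chosen with earlier results of these data known. The genes named are the 10, the eIF2α kinases, close relatives, and up to 4 genes of each other list, those with the largest absolute log2 fold change after VLDL-sized particles among those called that averaged 50 counts or more in the higher group. *Bbc3*, *Pmaip1*, the markers and the overlapping genes are named outside it, with their values known. For Atf4 and Ddit3 the 5 nearest genes outside the set that averaged 50 counts or more over all libraries are given.

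Groups share replicate numbers. Same-numbered VLDL-sized and control libraries deviated together from their group means (r = 0.14, 0.13 and 0.29 for replicates 1, 2 and 3, each over 0.1). Pairs with different numbers had r from −0.22 to 0.12. The highest of these, VLDL-sized library 2 with control library 1, was close to the same-numbered value of 0.13. Deviations from a mean of 3 libraries sum to 0, so the joint deviation of replicate 3 also raises the values among libraries 1 and 2, whatever their numbers. The values of 0.14 and 0.13 are therefore not separate evidence that the numbers 1 and 2 mark pairs. The labels do not say what a number marks. Alternatives were edgeR's quasi-likelihood test and DESeq2 1.42.0 on rounded counts, limma-trend (2 as prior count), no TMM factors (library size only), upper-quartile factors, no filter, a stricter filter (50 counts), only the groups compared, the replicate block, each library left out, and no replicate 3; a term for replicate 3 was added after seeing the data. The main limma-voom fit was tested for each comparison on simulated data without a replicate effect, and the alternatives were not. One marker gene is not reported here.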

Additional observations from a re-analysis of the deposited data

How the results depend on the processing

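Each group has only 3 pools, and the part of depth in the standard errors was not tested. After VLDL-sized particles all 10 genes stayed higher than control in every alternative, and 9 or 10 passed. For CHYL-sized particles against control, the deviations of same-numbered libraries correlated at 0.12, 0.068 and 0.34, and for VLDL-sized against CHYL-sized at 0.029, 0.12 and 0.36, not all over 0.1, and not every library correlated best with its own number, so no pairing was taken from these numbers, although the replicate 3 libraries deviated together. With the replicate block, genes called after CHYL-sized particles numbered 4949 in place of 3249, and 5147 with a term for replicate 3; 10 of the 10 genes then passed in both fits. Members of the set called after CHYL-sized particles numbered 5 to 10 when libraries were left out, 7 with edgeR and 6 with DESeq2. Calls over all genes numbered 2337 to 4150, 3241 and 3231, respectively. Between VLDL-sized and CHYL-sized particles, 24 genes passed with DESeq2, 147 with the block (5 of the 10 genes), 239 with the replicate 3 term (6 of the 10 genes), and 0 to 232 when libraries were left out (0 to 8 of the 10 genes), the highest without replicate 3 and 1 without VLDL-sized library 3 or CHYL-sized library 2. The difference of Cebpb turned to −0.006 without VLDL-sized library 1, −0.002 without VLDL-sized library 3 and −0.045 without CHYL-sized library 1, and leaving out single libraries gave up to 0.141. Library size only moved the median of all genes to −0.0935 and −0.0788 and the share of higher calls from 49.9% to 31.3% after VLDL-sized particles and from 49.6% to 29.8% after CHYL-sized particles, with no sign change of a called gene of the set or its lists. DESeq2 called 9 and 4 of 19 ER chaperones in place of 6 and 2. Among the 10 genes, the block changed no call after VLDL-sized particles other than that of Cebpg, and over all genes the calls went from 4500 to 6058. The cause of these changes was not tested.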
